A study of Mus musculus with 6 samples.

Results

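Rpph1, Rmrp, Terc and Rn7sk, the RNA components of noncoding ribonucleoproteins (RNPs), were examined in bulk-seq of whole spinal cord from SMA and control mice at P4. These 4 of the 25576 listed genes were chosen by name for their role, with their measured FPKM in the same libraries in view. Their own SMA and control values are therefore given as a description, with no test. All 4 were listed in the files and passed the filter used for testing, a minimum mean of 0.5 FPKM over the libraries.

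RNase P and RNase MRP are related enzymes built on related RNAs, and they share most of their proteins. RNase P removes the leader from precursor transfer RNAs, RNase MRP cleaves precursor ribosomal RNA, and telomerase copies a short template in its RNA onto chromosome ends. Rn7sk RNA holds the elongation kinase P-TEFb in an inactive RNP, and with Rpph1 and Rmrp it is made by RNA polymerase III, whereas Terc is made by RNA polymerase II.

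The SMA libraries came from mSmn-/-, hSMN22tg/0 mice and the control libraries from mSmn+/-, hSMN22tg/0 mice, all of the FVB strain, so both groups carried the human transgene and the controls were heterozygous for mouse Smn. There were 3 libraries per group, made from total RNA after removal of ribosomal RNA. The study describes triplicates with n = 1 per group, so whether they came from separate animals is unclear, and p-values measure only the spread between these samples. Summed FPKM ran from 346181 to 413653 per library, and read depth estimated from the spacing of low FPKM values was 1.00 to 1.16 times that of SMA replicate 1.

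Smn1 was 10.4, 8.64 and 11.9 FPKM in control replicates 1 to 3 and 8.48, 9.30 and 11.1 FPKM in SMA replicates 1 to 3. These ranges overlapped, so groups are called libraries labelled SMA and control. FPKM per gene does not show which part of Smn1 the reads covered, so no genotype is read from the overlap. All 14 spinal cord markers were above 0 in every library, with sums of 1018 to 1639 FPKM and Mbp the most abundant over the 6 libraries. Control replicate 2 stood apart. The sum of 12 hepatocyte markers was 26630 FPKM there, led by Alb, against 44.6 to 97.7 FPKM in the other libraries. The sum of 7 erythroid markers, led by Hbb-bs, was 18823 FPKM there against 1115 to 1861 FPKM elsewhere. Apoc3 or Tat was at 0 in control replicates 1 and 3 and SMA replicate 3, and no erythroid marker was at 0 in any library. Fitted log2 differences are therefore given with and without control replicate 2. The sum of 3 endothelial markers, led by Cldn5, was 35.8, 34.7 and 33.4 FPKM in control and 25.3, 20.9 and 19.6 FPKM in SMA. That of 4 markers of proliferating cells, led by Top2a, was 23.7, 77.9 and 19.8 FPKM in control and 17.6, 12.5 and 15.3 FPKM in SMA. Both sums were thus lower in every SMA library, also beside control replicates 1 and 3 alone, and none of these markers was at 0. Taken singly, Cdh5 and Cdk1 overlapped between groups, with and without control replicate 2, and the other markers of both lists did not. Sums of 3 microglial markers, led by P2ry12, and of 4 skeletal muscle markers, led by Acta1, overlapped between groups, at 29.3 to 37.1 and 0.761 to 5.56 FPKM. The part of these cells in the results was not tested, and in bulk tissue fewer cells of a type and less RNA per cell cannot be told apart.

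Rpph1, the RNA of RNase P, is a gene of 319 bases at chr14:50807449-50807767 on the minus strand (GRCm38). Bases 1 to 300 of the RNA are shown because Rpph1 carries the clearest group pattern. The capitals mark a run of 23 bases that occurs 2 times, from bases 182 and 203, with the copies overlapping at their ends (GENCODE M21 transcript, chr14:50807468-50807767).
Rpph1 RNA: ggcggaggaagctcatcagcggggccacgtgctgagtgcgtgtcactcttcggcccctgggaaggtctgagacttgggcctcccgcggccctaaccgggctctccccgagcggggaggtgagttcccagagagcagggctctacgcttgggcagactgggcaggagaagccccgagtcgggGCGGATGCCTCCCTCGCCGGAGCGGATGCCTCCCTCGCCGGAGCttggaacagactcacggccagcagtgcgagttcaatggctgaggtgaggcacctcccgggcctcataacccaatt

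Rpph1 was 72.3, 74.8 and 73.1 FPKM in control replicates 1 to 3. It was 109, 114 and 115 FPKM in SMA replicates 1 to 3. Every library labelled SMA was above every control, and the spread within each group was small, with means of 73.4 ± 1.31 FPKM in control and 113 ± 3.52 FPKM in SMA (SD, n = 3). The ratio of the means was 1.54, and the log2 difference of FPKM + 1 was 0.61 (SE 0.088). Control replicate 2, the library with hepatocyte and erythroid transcripts, had an Rpph1 level close to those of the other controls. Without it the log2 difference was 0.63 (SE 0.055). Among all listed genes Rpph1 ranked between 606 and 688 by FPKM in control and between 350 and 371 in SMA, where rank compares levels per length.

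Rmrp, the RNA of RNase MRP, lies at chr4:43492788-43493058 on the minus strand and has 271 bases. It was 1414, 1427 and 836 FPKM in control replicates 1 to 3 and 1202, 1097 and 1065 FPKM in SMA replicates 1 to 3. The SMA libraries sat between control replicate 3 and the other controls, so the groups overlapped. The means were 1226 ± 337 FPKM in control and 1121 ± 71.6 FPKM in SMA (SD, n = 3). The log2 difference was -0.089 (SE 0.25), and it was 0.042 (SE 0.20) without control replicate 2. Without control replicate 3, when every SMA library was below control, beside 13.5% of all genes, it was -0.34 (SE 0.16). Its sign depended on the libraries and on scaling, with 0.31 after quantile normalization. Rmrp was among the most abundant listed RNAs per length, at rank 9 to 19.

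Terc, the template RNA of telomerase, lies at chr3:96414437-96414859 on the minus strand. The first 120 bases of the RNA are shown for the template letters CTAACCC, which start at base 29 and are in capitals (GENCODE M21 transcript, chr3:96414740-96414859). The same letters were in 2.69% of 32851 RefSeq promoter windows of 300 bases, on either strand, so the match is a description of this RNA only.
Terc RNA: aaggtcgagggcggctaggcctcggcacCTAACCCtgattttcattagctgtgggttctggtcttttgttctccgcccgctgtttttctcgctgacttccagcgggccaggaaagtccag

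Terc was by far the least abundant of the 4 RNAs per length. It was 1.96, 4.29 and 0.219 FPKM in control replicates 1 to 3 and 2.16, 2.64 and 2.25 FPKM in SMA replicates 1 to 3. Both the highest and the lowest library were controls, and the SMA libraries were close together. The means were 2.15 ± 2.04 FPKM in control and 2.35 ± 0.256 FPKM in SMA (SD, n = 3). The log2 difference was 0.32 (SE 0.49) with all libraries and 0.82 (SE 0.33) without control replicate 2, when both remaining controls were below SMA. Without control replicate 3 it was -0.24, and with a pseudocount of 0.1 and all libraries it was 0.78, so single controls set its sign and its size also depended on the pseudocount. In control replicate 3 the level was 8.92 times the lowest value listed among 80 genes of 380 to 470 bases, 28 of which were at or below Terc. Depth at such levels is low, and no count of reads was used here.

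Rn7sk, the RNA of the 7SK RNP, lies at chr9:78175303-78175633 on the minus strand. Rn7sk was 17348, 14112.5 and 11584.5 FPKM in control replicates 1 to 3 and 16604, 13207 and 14419 FPKM in SMA replicates 1 to 3. The groups overlapped, with the highest and lowest libraries both controls. The means were 14348 ± 2889 FPKM in control and 14743 ± 1721 FPKM in SMA (SD, n = 3). The log2 difference was 0.052 (SE 0.37), it was 0.050 (SE 0.24) without control replicate 2, and median ratio scaling brought it to -0.0069. Rn7sk was the most abundant listed gene per length in 5 libraries and ranked 2 in control replicate 2, behind Alb. Per length the order in every library was Rn7sk, Rmrp, Rpph1 and Terc, with no overlap between neighbours in that order.

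**Figure D1:**
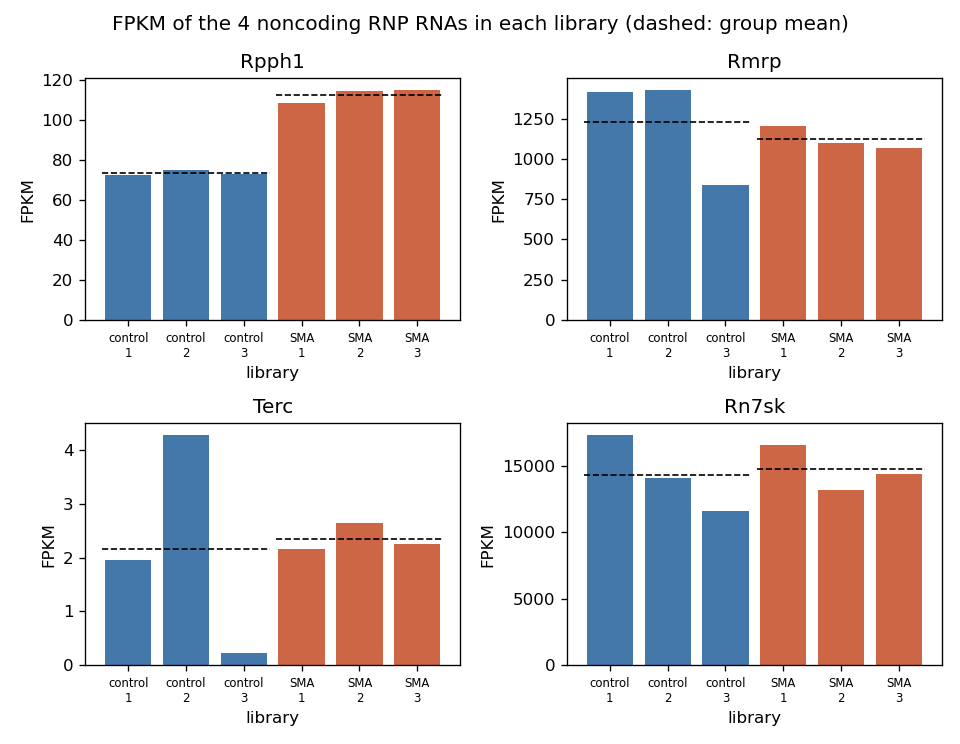
FPKM of Rpph1, Rmrp, Terc and Rn7sk (vertical axes, each from 0) in the 6 libraries (horizontal axes), with bars for libraries and dashed lines for group means. Rpph1 was 72.3 to 74.8 FPKM in control and 109 to 115 FPKM in SMA, while the groups overlapped for the other RNAs and control replicate 3 was the lowest library for each of those.

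Of the 4 RNAs, 1 had every SMA library above every control, Rpph1, beside 10.3% of 17088 genes tested. None had every SMA library below every control, beside 6.67% of the genes tested. Without control replicate 2 the counts were 2 above, Rpph1 and Terc, beside 14.2%, and 0 below, beside 13.9% of 16574 genes. After median ratio scaling the shares of all genes were 8.27% above and 8.88% below, so which was larger depended on the scaling. Nothing is read from these counts, since measured values of the same contrast were known when the members were chosen.

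The 4 RNAs together took 5.22%, 3.78% and 3.61% of the summed FPKM in control replicates 1 to 3. They took 4.89%, 3.96% and 4.23% in SMA replicates 1 to 3. These shares overlapped, and Rn7sk made up most of them, with 3.35% to 4.81% of the sum over the 6 libraries.

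Rpph1 was next set against other noncoding RNAs of the same library, which removes any scaling of the whole library. Per 1000 FPKM of Rmrp it was 51.1, 52.4 and 87.4 FPKM in control and 90.4, 104 and 108 FPKM in SMA. Per 1000 FPKM of Rn7sk it was 4.17, 5.30 and 6.31 FPKM in control and 6.54, 8.66 and 7.98 FPKM in SMA. The SMA libraries were above the controls in both ratios, with control replicate 3, the library with the lowest Rmrp and Rn7sk, nearest to SMA. Rmrp per 1000 FPKM of Rn7sk was 81.5, 101 and 72.2 FPKM in control and 72.4, 83.1 and 73.8 FPKM in SMA, with overlap.

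Rn7s1 and Rn7s2 encode 7SL RNA, the RNA of the signal recognition particle and another product of RNA polymerase III. Rn7s1 was 8638, 9439 and 8293 FPKM in control and 10534, 11318.5 and 12142 FPKM in SMA. Rn7s2 was 9384, 8128 and 7341 FPKM in control and 10878, 11660 and 12417 FPKM in SMA. Both were thus above control in every SMA library, as were Rpph1 and 10.3% of all genes tested, but Rn7s1 overlapped after median ratio scaling. Their transcripts in GENCODE M21 have sequence in common, with 100% of the runs of 20 bases of Rn7s1 also in Rn7s2, so the division between Rn7s1 and Rn7s2 is uncertain. Against Rn7s1 and Rn7s2 summed, Rpph1 was 4.01, 4.26 and 4.68 FPKM per 1000 in control and 5.07, 4.98 and 4.68 FPKM per 1000 in SMA. The gap between control replicate 3 and SMA replicate 3 was nearly nil, and the ratio of group means was 1.14 in place of 1.54. Against Rn7s2 alone, Rpph1 was 7.70, 9.21 and 9.96 FPKM per 1000 in control and 9.99, 9.81 and 9.26 FPKM per 1000 in SMA, and the groups overlapped.

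**Figure D2:**
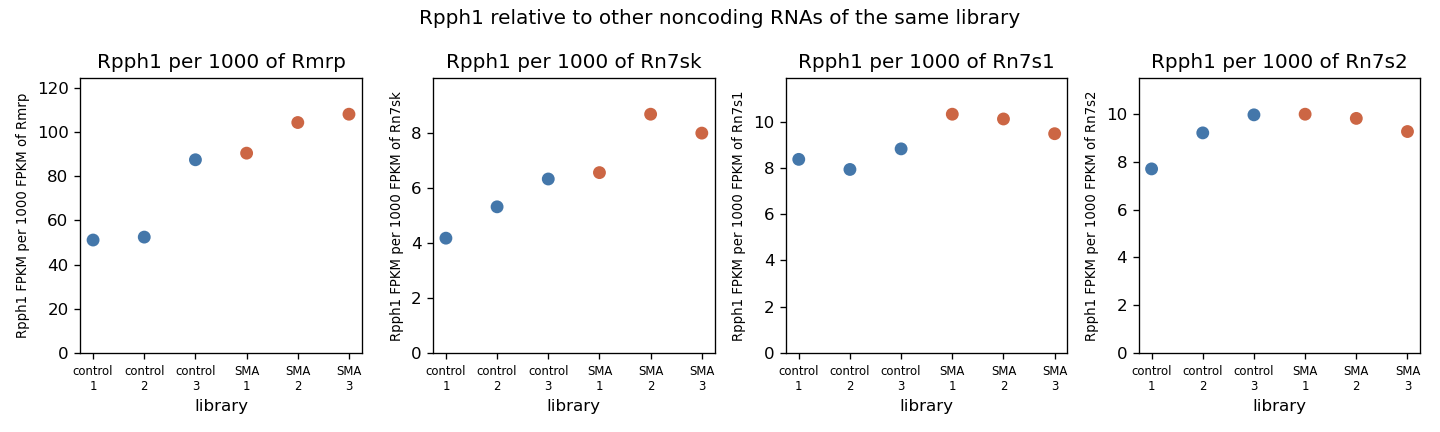
Rpph1 FPKM per 1000 FPKM of Rmrp, Rn7sk, Rn7s1 and Rn7s2 (vertical axes, each from 0) in the 6 libraries (horizontal axes), with blue points for control and orange points for SMA. The SMA libraries were above control against Rmrp, Rn7sk and Rn7s1, and overlapped control against Rn7s2, where control ran from 7.70 to 9.96.

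The fitted log2 difference was 0.37 (SE 0.30) for Rn7s1, 0.50 (SE 0.31) for Rn7s2 and 0.43 (SE 0.22) for Rn7s6, listed beside them as a miscellaneous RNA. Each had an adjusted p of 0.683 (limma with Benjamini-Hochberg adjustment), and Rn7s6 overlapped between groups. Without control replicate 2 the differences were 0.42 (SE 0.16), 0.49 (SE 0.18) and 0.66 (SE 0.13). All 3 genes were then above control in every SMA library, beside 14.2% of all genes. They passed an unadjusted p of 0.05, beside 10.5%, with adjusted p-values of 0.443, 0.436 and 0.273 (limma with Benjamini-Hochberg adjustment). Rn7s1 and Rn7s2 share sequence and are not separate in these counts. Rescaling to the same sum gave 0.39, 0.52 and 0.45, when all 3 also passed an unadjusted p of 0.05, beside 4.24% of all genes (limma). Rn7s6 was at 0.20 without control replicate 3. After quantile normalization the difference of Rn7s1 was 0, while Rn7s2 and Rn7s6 stayed higher at 0.48 and 0.39. Of the 19 symbols in the list of other noncoding RNP and polymerase III RNAs, 7 were listed under these names, and 4 of those, Rnu3b1 to Rnu3b4, were below the minimum mean, at 0 to 1.36 FPKM.

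Short RNA genes other than the 4 members were examined next. Of 38 such genes past the filter on low FPKM, annotated as small nuclear, nucleolar, Cajal body or miscellaneous RNA, 14 had every SMA library above every control, beside 10.3% of all genes tested, and 0 had every one below, beside 6.67%. The groups overlapped in the others. The median log2 difference of the 38 was 0.51, beside 0.044 over all genes tested. Without control replicate 2 the count was 18 above, beside 14.2%, and 0 below, beside 13.9%, with a median of 0.61 beside 0.0016. The median was 0.30 beside 0.065 without control replicate 3. Median ratio scaling gave 11 above, beside 8.27%, and 0 below, beside 8.88%. Control replicate 3 was the lowest of the 6 libraries for 20 of the 38 genes, as it was for Rmrp, Terc and Rn7sk, but not for Rpph1. This count was made after the values were seen, and its part in the Rpph1 difference was not tested. When libraries were scaled to these short RNA genes, an alternative also chosen after seeing the data, the log2 difference of Rpph1 was 0.031 and that of Rmrp was -0.67. The same scaling moved the median of all genes from 0.044 to -0.45, since 1 factor per library moves all its genes alike.

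Copies of Rn7sk elsewhere in the genome can share its reads. In GENCODE M21, 73 other genes held at least 1 run of 20 bases of Rn7sk on either strand, and 9 of them were listed. Gm24447, with 71.2% of these runs, was 238, 189 and 164 FPKM in control and 319, 275 and 296 FPKM in SMA. Gm26315, with 69.2%, was 239, 181 and 140 FPKM in control and 292, 234 and 251 FPKM in SMA. Gm24447 was above control in every SMA library and Gm26315 overlapped, whereas Rn7sk itself showed no such offset. Their log2 differences were 0.60 (SE 0.16) and 0.50 (SE 0.21), and 0.58 and 0.49 without control replicate 2. Gm24447 passed an unadjusted p of 0.05, and Gm26315 did so without control replicate 1, at 0.69, without control replicate 2 and after rescaling to the same sum, at 0.52. Gm26315 was at 0.31 without control replicate 3. For Rpph1, 14 genes held a run and 1 of them was listed, Ccnb1ip1, with 70.9% of the Rpph1 runs.

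**Figure D3:**
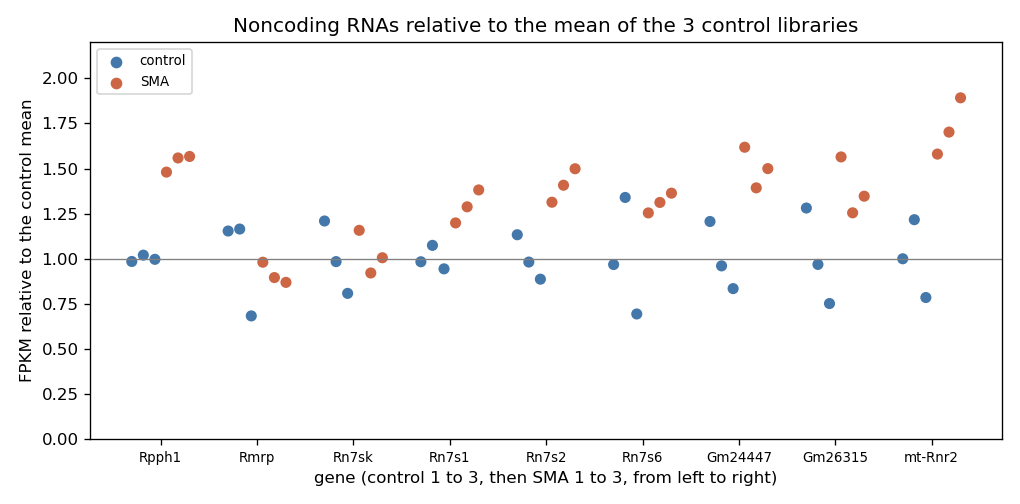
FPKM relative to the mean of the 3 control libraries (vertical axis, from 0) for Rpph1, Rmrp, Rn7sk, Rn7s1, Rn7s2, Rn7s6, the Rn7sk copies Gm24447 and Gm26315, and mt-Rnr2 (horizontal axis), with 1 point per library in the order control 1 to 3 and SMA 1 to 3. Rpph1 had the tightest control points, and Rn7s1, Rn7s2, Gm24447 and mt-Rnr2 were also above control in every SMA library.

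The mitochondrial large ribosomal RNA, mt-Rnr2, was 774, 943 and 608 FPKM in control and 1225, 1319 and 1467 FPKM in SMA. It was named after its values were seen, as a ribosomal RNA still listed at a high level after ribosomal RNA removal. Its log2 difference was 0.80 (SE 0.21; adjusted p = 0.683, limma with Benjamini-Hochberg adjustment), and 0.96 (SE 0.12) without control replicate 2. The small mitochondrial ribosomal RNA, mt-Rnr1, was far lower and overlapped between groups, at 7.91, 13.8 and 24.2 FPKM in control and 13.4, 24.7 and 16.0 FPKM in SMA. The part of ribosomal RNA removal in the levels of Rpph1 was not tested.

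Parp2, which encodes a poly(ADP-ribose) polymerase, was not higher in SMA. It starts 74 bases from Rpph1 on the other strand, and it was 6.14, 7.04 and 5.89 FPKM in control and 5.96, 5.95 and 5.21 FPKM in SMA. Its log2 difference was -0.13 (SE 0.11), and -0.067 without control replicate 2, and every SMA library was below control after rescaling to the same sum. Ccnb1ip1 has a transcript that overlaps Rpph1 on the same strand, and it was 0.137 to 1.03 FPKM over the 6 libraries, where Rpph1 was at least 72.3 FPKM. Ccdc107, which overlaps Rmrp on the opposite strand, was 7.92, 10.3 and 8.73 FPKM in control and 10.5 FPKM in each SMA library, above every control, with a log2 difference of 0.21 (SE 0.11), 0.30 without control replicate 2 and 0.13 without control replicate 1. It passed an unadjusted p of 0.05 without control replicate 2 but not with all libraries, and its groups overlapped after median ratio scaling, at 0.16. Rmrp itself overlapped between groups. The files give Rmrp the joint span of both genes. The libraries kept strand, but whether the FPKM step used it is not given in the sources used here, so the division of reads between Rmrp and Ccdc107 is uncertain where they overlap.

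The stretch of 100 bases before Rpph1, which runs 27 bases into the annotated Parp2 gene, is shown because both genes start there in opposite directions. It is written in the direction of Rpph1, up to the base before its start (chr14:50807768-50807867, RefSeq promoter table, GRCm38.p6). The capitals mark the octamer ATGCAAAT, the letters bound by Pou2f1, with its nearest base 93 bases upstream, so it lies inside the annotated Parp2 gene. On either strand, 1.74% of 32851 promoter windows of 300 bases held these letters, and a match does not show binding.
Rpph1 upstream: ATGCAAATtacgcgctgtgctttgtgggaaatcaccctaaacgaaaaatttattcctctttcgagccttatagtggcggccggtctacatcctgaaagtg

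Proteins of RNase P and RNase MRP were near the median of all genes. All 11 were tested, and 7 were higher and 4 lower in SMA, where 58.0% of all genes were higher. With control replicate 2 left out 6 were higher, beside 50.4%. None passed an unadjusted p of 0.05, beside 5.79%, while without control replicate 3 Pop5 did, at 0.50, beside 10.2% (limma). The median log2 difference of the 11 was 0.088 beside 0.044 over all genes tested, and 0.012 beside 0.0016 without control replicate 2. The range was -0.15 for Pop1, the largest protein of both enzymes (-0.049 without control replicate 2), to 0.35 (SE 0.17) for Pop5. Pop7 was at 0.29 (SE 0.23), Rpp21, a protein of RNase P, at 0.23 (SE 0.13) and Rpp14 at 0.19 (SE 0.16). With control replicate 2 left out they were at 0.082, 0.18 and 0.061, with Pop5 highest at 0.24 and Rpp40 lowest at -0.18. Much of the offset of Pop7 and Rpp14 thus rested on that library, but not on it alone. Pop7 was at 0.14 without SMA replicate 1 and 0.47 without control replicate 1, and Rpp14 at 0.089 without SMA replicate 2. Pop5 was 6.12, 5.30 and 8.03 FPKM in control and 7.61, 7.86 and 10.1 FPKM in SMA, so even the most shifted partner overlapped between groups.

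Of 9 telomerase proteins tested, 7 were lower and 2 higher, where 58.0% of all genes were higher. Their median log2 difference was -0.16 beside 0.044 over all genes. Leaving out control replicate 2 gave 8 lower and 1 higher, beside 50.4% higher, and a median of -0.071 beside 0.0016. None passed an unadjusted p of 0.05, beside 5.79% (limma), so no direction is read from these counts. Wrap53, which brings Terc to Cajal bodies, was 2.96, 4.36 and 3.34 FPKM in control and 2.75, 2.64 and 2.22 FPKM in SMA. These groups did not overlap, yet the difference of -0.35 (SE 0.15) had an adjusted p of 0.683 (limma with Benjamini-Hochberg adjustment), and it was -0.23 without control replicate 2. Without control replicate 1 it was -0.45 and passed an unadjusted p of 0.05. Naf1, an assembly factor, did not overlap the other way, at 4.31, 4.06 and 4.46 FPKM in control and 4.52, 5.09 and 4.94 FPKM in SMA. Its difference was 0.15 (SE 0.10), and its groups overlapped after median ratio scaling or rescaling to the same sum. Shq1 was at -0.25 (SE 0.18), the pseudouridine synthase Dkc1 at -0.21 (SE 0.18) and the catalytic subunit Tert at -0.20 (SE 0.19). Leaving out control replicate 2 gave -0.10, -0.061 and -0.33, so that library set much of the first 2 values. Leaving out control replicate 3 instead gave -0.40 for Shq1, -0.39 for Dkc1 and -0.29 for Nhp2, another protein of the list, and these 3 then passed an unadjusted p of 0.05, beside 10.2% of all genes. Tert was 2.86, 2.01 and 2.90 FPKM in control and 2.17, 2.65 and 1.56 FPKM in SMA, with SMA below control in every library without control replicate 2, and a difference of -0.069 without SMA replicate 3. Gar1 was the highest with all libraries, at 0.20 (SE 0.19), but -0.012 without control replicate 2, when Naf1 was highest at 0.12. The summed markers of endothelial and of proliferating cells were also lower in SMA, and the part of these cells in these values was not tested. Of 4 genes of Terc RNA processing, Parn, Papd5, Tgs1 and Zcchc8, all were higher, beside 58.0% of all genes and 50.4% without control replicate 2. The list held 5 symbols, as Tent4b, a newer name of Papd5, was not in the files. These 4 genes had a median of 0.079 and a range of 0.039 to 0.22, and with 0.061 and 0.0046 to 0.21 without control replicate 2. Zcchc8, of the nuclear exosome targeting complex, was highest (SE 0.093), and its groups did not overlap, nor did those of the poly(A) polymerase Papd5, beside 10.3% of all genes with SMA above. After median ratio scaling 3 of the 4 were higher, beside 49.2% of all genes. The groups then did not overlap in 1, Zcchc8, beside 8.27% of all genes with SMA above. Zcchc8 was also the 1 after rescaling to the same sum, beside 7.03%.

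Proteins of the 7SK RNP had a median log2 difference of 0.12 over 7 genes, beside 0.044 over all genes, and 5 were higher, beside 58.0%. Without control replicate 2 the median was 0.091 beside 0.0016, and 6 were higher, beside 50.4%. The median was 0.073 without SMA replicate 1. Cdk9, the kinase of P-TEFb, was 13.9, 15.7 and 17.0 FPKM in control and 18.5, 19.1 and 18.8 FPKM in SMA. It passed an unadjusted p of 0.05 with a log2 difference of 0.26 (SE 0.10), 0.27 without control replicate 2, and the adjusted p was 0.683 (limma with Benjamini-Hochberg adjustment). The unadjusted call ended without control replicate 1, at 0.19, and without SMA replicate 1, 2 or 3, at 0.28, 0.25 and 0.27. Median ratio scaling and rescaling to the same sum ended it too, at 0.21 and 0.29. Hexim2, an inhibitor of P-TEFb, was at 0.41 (SE 0.30), but 0.091 without control replicate 2, where it was 3.17 FPKM. Without control replicate 1 it was at 0.72 and passed an unadjusted p of 0.05. The capping enzyme Mepce was at 0.14 (SE 0.096) and the cyclin Ccnt2 at 0.12 (SE 0.099), and at 0.15 and 0.10 without control replicate 2. Mepce was at 0.092 without SMA replicate 3, and Ccnt2 at 0.073 without SMA replicate 1. Median ratio scaling gave 0.088 for Mepce and 0.063 for Ccnt2. Larp7, Hexim1 and Ccnt1 were between -0.080 and 0.018, and between -0.056 and 0.082 without control replicate 2.

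RNA polymerase III and its factors, 25 genes, had a median log2 difference of 0.047 beside 0.044. Of these, 14 were higher and 11 lower, where 58.0% of all genes were higher. Without control replicate 2 the median was 0.0060 beside 0.0016, with 13 higher, beside 50.4%. After median ratio scaling it was -0.0047 beside -0.0048, with 12 higher, beside 49.2%. Without control replicate 3 it was 0.10 beside 0.065. Polr3gl, a polymerase III subunit with the related form Polr3g, was 3.09, 3.64 and 3.73 FPKM in control and 6.43, 4.48 and 4.19 FPKM in SMA. Polr3g itself overlapped, at 2.30, 2.06 and 4.36 FPKM in control and 2.95, 1.99 and 2.08 FPKM in SMA. Its difference was -0.19 (SE 0.25), -0.34 without control replicate 2, the lowest of the 25 genes there, and 0.061 without control replicate 3. Brf2, the initiation factor at promoters of the Rn7sk kind, was 5.51, 4.98 and 4.56 FPKM in control and 6.44, 6.84 and 6.63 FPKM in SMA. Polr3gl and Brf2 were above control in every SMA library and passed an unadjusted p of 0.05, as did 5.79% of all genes. Their log2 differences were 0.41 (SE 0.17) and 0.35 (SE 0.11), and each had an adjusted p of 0.683 (limma with Benjamini-Hochberg adjustment). Leaving out control replicate 2 gave 0.44 and 0.34. Polr3gl rested in part on SMA replicate 1, without which it was at 0.25. Its unadjusted call ended there, without control replicate 1 (0.35) or 3 (0.45), without SMA replicate 2 (0.47) and after median ratio scaling (0.36). That of Brf2 ended without SMA replicate 2 (0.33) or 3 (0.35). Polr1c was at 0.22 (SE 0.14), 0.15 without control replicate 2 and 0.34 without control replicate 1, when it passed an unadjusted p of 0.05. Polr3e was at -0.21 (SE 0.10), with every SMA library below control, though not after rescaling to the same sum. After median ratio scaling it was at -0.26 and passed an unadjusted p of 0.05, as did 6.39% of all genes. Pou2f1, the octamer factor, was 8.55, 8.11 and 8.33 FPKM in control and 10.3, 8.56 and 8.90 FPKM in SMA, with a log2 difference of 0.13 (SE 0.10), 0.12 without control replicate 2 and 0.061 without SMA replicate 1, and its groups overlapped after median ratio scaling or rescaling to the same sum. Without control replicate 2, Polr3e, Ssb, Snapc4, Polr3gl and Brf2 passed an unadjusted p of 0.05, with Polr3e at -0.28, Ssb at -0.21 and Snapc4 at 0.31, where 10.5% of all genes did. None passed an adjusted p of 0.05 (limma with Benjamini-Hochberg adjustment).

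**Figure D4:**
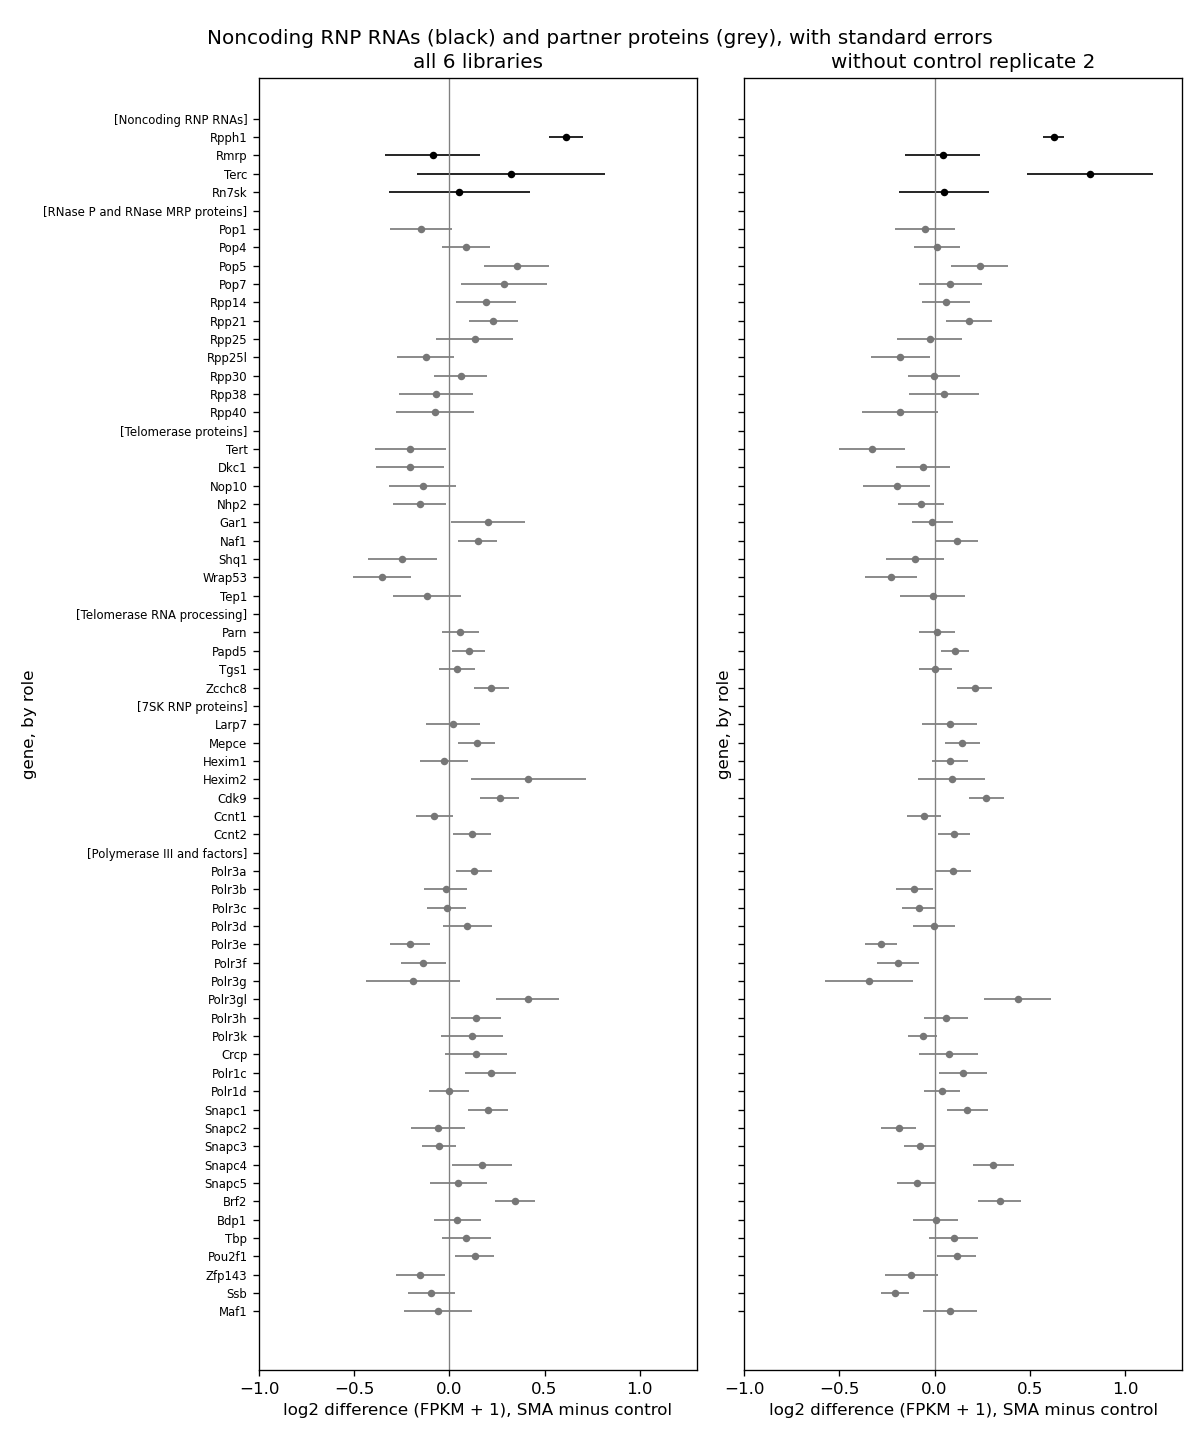
Log2 difference of FPKM + 1, SMA minus control, with standard errors (horizontal axes), for the 4 noncoding RNP RNAs in black and 56 partner proteins in grey by role (vertical axis), with all 6 libraries on the left and without control replicate 2 on the right. Rpph1 was at 0.61 and 0.63, and the proteins ran from -0.35 to 0.41 with all libraries.

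Over the 56 partner proteins, 0 passed an adjusted p of 0.05, as did 0% of all genes, and 3 passed an unadjusted p of 0.05, or 5.36% beside 5.79% of all genes (limma). Groups did not overlap with SMA higher in 8, or 14.3% beside 10.3%, and with SMA lower in 2, or 3.57% beside 6.67%. After median ratio scaling these were 5, or 8.93% beside 8.27%, and 4, or 7.14% beside 8.88%. Rescaling to the same sum gave 5 beside 7.03% and 2 beside 6.54%. Without control replicate 2, 6 passed an unadjusted p of 0.05, or 10.7% beside 10.5%. Groups then did not overlap with SMA higher in 9, or 16.1% beside 14.2%, and with SMA lower in 7, or 12.5% beside 13.9%, so the lower count moved from 2 to 7 with that 1 library. In that fit 0 of the 56 passed an adjusted p of 0.05, beside 0.0121% of all genes (limma with Benjamini-Hochberg adjustment). The higher count was 14 without control replicate 1, beside 21.6%, and 13 without control replicate 3, beside 20.7%, with 4 and 7 lower, beside 12% and 13.5%. With SMA replicate 1, 2 or 3 left out the higher count was 9, 11 and 9, beside 14.8%, 14.1% and 13.5%, and the lower count 5, 2 and 3, beside 11.6%, 8.92% and 8.74%. In these fits 1, 0 and 1 of the 56 passed an unadjusted p of 0.05, beside 3.18%, 2.32% and 1.98% of all genes (limma). It was passed by 4 without control replicate 1 and 6 without control replicate 3, beside 9.38% and 10.2% (limma).

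The genes with the profile nearest to each member were found by the root mean square difference of centred log2(FPKM + 1) values over the 6 libraries. For Rpph1 they were Gm37051, Amd-ps3, Gm37056, Sult2b1 and Timm10b, at 0.050 to 0.077. Timm10b, a mitochondrial import protein, was 8.87, 8.57 and 9.04 FPKM in control and 12.1, 12.6 and 13.7 FPKM in SMA. For Rmrp the nearest were Nr2f6, Gm12191, Prelp, RP23-78N8.5 and Susd1, at 0.060 to 0.084, and Nr2f6 was 14.3, 13.4 and 8.43 FPKM in control and 11.5, 11.3 and 9.96 FPKM in SMA. For Rn7sk they were 9430060I03Rik, Rbm8a, 4931415C17Rik, Slc26a11 and Spin4, at 0.047 to 0.053. For Terc they were Snrpf, Rps12-ps3, Alkbh2, Gm26448 and C030032O16Rik, at 0.22 to 0.29, a looser match than for the other members. None of the nearest genes was a member or a partner on the lists.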

How the data were processed

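Total RNA of spinal cord from 3 SMA and 3 control samples at P4 was sequenced after ribosomal RNA removal. The deposited values are FPKM per gene, which the authors computed for each library. HISAT2, Cufflinks and mm10 are named in the submitters' processing notes, and their versions and the annotation release are not given in the sources used here. A gene absent from a file was set to 0. Members and lists were chosen with earlier results of these data known.

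A pseudocount of 1 was added to FPKM before taking log2. Genes whose mean reached 0.5 FPKM in the libraries used were fitted with lmFit and eBayes (trend) of limma 3.58.1 in R 4.3.3, two-sided, with Benjamini-Hochberg adjustment over all genes tested. The fit was tested on simulated data, with means and spread taken without control replicate 2 and independent noise. No simulated library stood apart as that one does, so the simulation does not show how the fit performs with it. DEGs were genes with an unadjusted p under 0.05 and a fold over 2. Folds are on the log2(FPKM + 1) scale, which understates those of low genes. FPKM is not a count, so no count test was run, and total depth is unknown. Tables and plots were made with Python 3.11.15, pandas 2.3.3, numpy 2.4.6 and matplotlib 3.10.9.

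Named genes were the 4 members, from each list at most 4 genes with the largest absolute log2 difference and any past a threshold, genes that overlap or adjoin a member, and the 5 nearest patterns per member. Others were named after their values were seen. Of the listed genes, 99.3% were found by identifier in GENCODE M21. Sequences came from GENCODE M21 transcripts and the RefSeq promoter table of GRCm38.p6.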

Additional observations from a re-analysis of the deposited data

How the results depend on the processing

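Alternatives to the pseudocount, the filter, the scaling, the model and the set of libraries gave 161 values, of which 140 moved by less than the spread between replicates or, for counts, by no more than 1.5 times. Some could not move, since a replicate block leaves the log2 differences of this balanced design unchanged. Terc was among the unmoved at -0.24 to 0.82, because its replicates spread widely. The count of 140 is therefore no measure of stability. With all libraries, 17 genes were lower DEGs and 12 higher DEGs. With a pseudocount of 0.1 these were 125 and 64. Leaving out 1 library at a time gave 4 to 131 lower and 12 to 28 higher DEGs. It also gave 0 to 2 genes past an adjusted p of 0.05, with the 2 only without control replicate 2 (limma). These included Snora74a, at a log2 difference of 3.13 (SE 0.23; adjusted p = 0.0215, limma with Benjamini-Hochberg adjustment). These counts are over all genes tested, with the members among them. No call is given for the 4 members, whose values were known when they were chosen, so the counts are no test of any member. With all libraries 0 genes passed an adjusted p of 0.05, while 990 passed an unadjusted p of 0.05, 58.7% of them higher (limma). That share was 46.7% after rescaling to the same sum, 48.3% after median ratio scaling and 65.5% after quantile normalization. With libraries scaled to the other short RNA genes, 10 genes past the unadjusted p were higher and 3248 lower. DEGs were then 5 higher and 688 lower. That scaling was chosen after seeing the data and moves all genes of a library alike, so nothing is read from these counts.

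The log2 difference of Rpph1 was 0.55 after median ratio scaling, and 0.60 to 0.64 when 1 library was left out. That of Rmrp was 0.31 after quantile normalization. Scaling to the other short RNA genes, chosen after seeing the data, gave 0.031 for Rpph1, -0.67 for Rmrp, 0.029 for Terc and -0.53 for Rn7sk. The cause of these shifts beyond the scaling itself was not tested. Leaving out 1 library gave -0.34 to 0.042 for Rmrp, -0.24 to 0.82 for Terc and -0.092 to 0.20 for Rn7sk, so the sign of each of these turned. The median of RNase P and RNase MRP proteins was 0.17 after quantile normalization and 0.012 to 0.16 when 1 library was left out, that of telomerase proteins -0.19 to -0.071, and that of 7SK RNP proteins 0.063 after median ratio scaling.

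With a replicate block, 35 genes were lower DEGs and 13 higher, 0 passed an adjusted p of 0.05, and the members' differences were as without it. Libraries with the same number had deviations that correlated at -0.037, 0.016 and 0.077, and those with different numbers at -0.055 to 0.043. With so few libraries and control replicate 2 set apart, these values cannot show whether the numbers pair the samples. FPKM without read counts limits what can be said of Terc, and the groups' size limits every comparison.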
